A study of Mus musculus with 8 samples.

Results

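Mature Ccr7+ dendritic cells are the subject here: 240 cells among the 10605 CD45+ cells kept from the mammary tumors of 8 mice. Cells were kept with 500 to 6000 genes and less than 10% mitochondrial transcripts, which left 10605 of the 11430 cells deposited. Members had at least 1 Ccr7 UMI and at least 1 Fscn1 UMI, 3 or more of both together, and no more than 1 UMI of Cd3d, Cd3e and Cd3g together. A UMI is a tagged transcript, counted once. The cells were thus chosen by measured values, and the levels of these 5 genes are given as a description and enter no test. Ccr7 lies at chr11:99144196-99155077 and Fscn1 at chr5:142960343-142973185 (GENCODE, GRCm38).

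Dendritic cells take up antigen in tissue and present it to T cells. When they mature they gain CCR7, the receptor that guides them along CCL19 and CCL21 to the draining lymph node, and fascin (Fscn1), an actin-bundling protein of their long extensions. In tumors such cells carry costimulatory molecules together with inhibitory ones such as PD-L1, and make the chemokine CCL22, which attracts CCR4-bearing T cells. Antigen uptake is known to fall as presentation and migration are gained.

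All tumors grew in the mammary gland of female C57BL/6 mice, whose age was not given in the sources used here, and were taken on day 18 after implantation. Of the 8 mice, 2 carried parental E0771, a C57BL/6 mammary carcinoma line (mice 1 and 3), 3 carried E0771-Res1 and 3 carried E0771-Res2. The resistant lines were grown by the authors from E0771 tumors that came back after paclitaxel with an anti-PD-1 antibody, so that each stands for 1 recurrent tumor and not for resistance in general. Cells from all tumors were labelled with oligonucleotide tags and pooled for 3′ sequencing. The deposited counts held 5036667 to 18894504 UMIs per mouse and the members 67545 to 560655, and 0 cell barcodes were shared between mice.

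The gate genes were far above the limits in most members. The median member held 16 Ccr7 UMIs and 10 Fscn1 UMIs, and the sum ran from 3 to 126 with a median of 27. Just inside the limit lay 17 members with a sum of 3 to 5, and just outside lay 25 cells with 1 UMI of each gene. Ccl22 was at 199 CPM (UMIs of the gene for every 1000000 UMIs of those cells) in the first and at 18.5 CPM in the second, and C1qa, a macrophage gene, was at 763 CPM against 2342 CPM. A further 73 cells held 3 or more Ccr7 UMIs and no Fscn1, and 7 held 3 or more Fscn1 UMIs and no Ccr7. Ccl22 was at 418 CPM in these 73 cells and at 515 CPM in the 7, above the members nearest the limit. C1qa was at 671 and 313 CPM. No gate that was tried took these cells in. Another 26 cells were left out for Cd3 transcripts, with Ccl22 at 172 CPM. Of the 240 members, 82.5% held no Cd3 UMI.

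**Figure D1:**
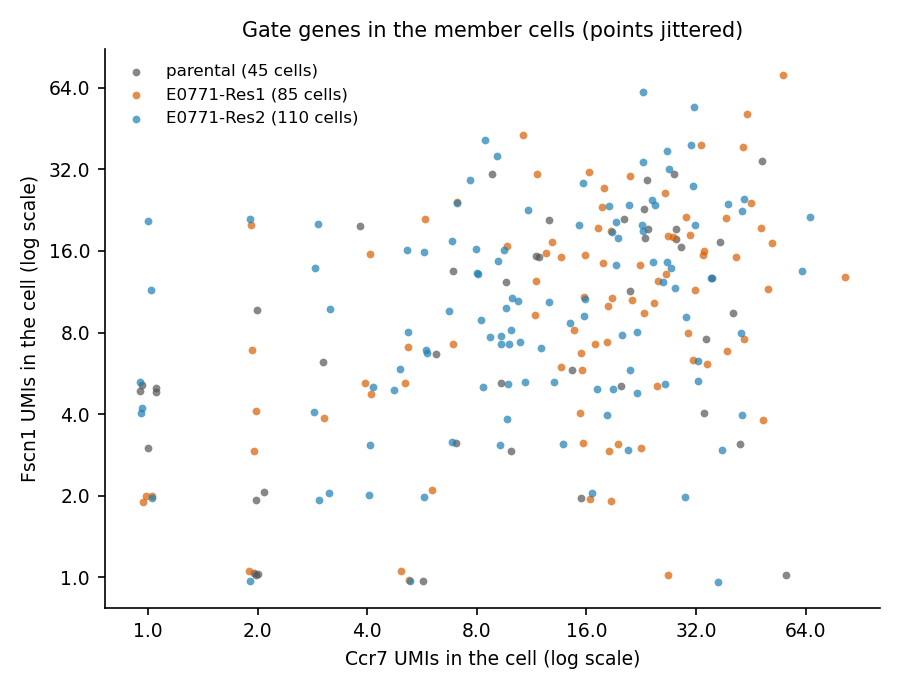
Ccr7 UMIs (x axis) and Fscn1 UMIs (y axis) in each of the 240 member cells, on log scales with the points jittered and colored by tumor line. The highest sum of a parental member was 81, that of E0771-Res1 was 126 and that of E0771-Res2 was 88, and 158 of the 240 cells had a sum above 20.

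Markers outside the gate were checked against 4 other cell gates of the same tumors. These were Cd209a+ dendritic cells (170 cells with 2 or more Cd209a UMIs), XCR1+ dendritic cells (29 cells with 2 or more UMIs of Xcr1 and Clec9a together), C1q+ macrophages (3081 cells with 5 or more C1q UMIs and at least 1 Csf1r UMI) and T cells (1102 cells with 2 or more Cd3 UMIs). A cell was given to 1 gate alone, with the mature gate taken first, and all gates but T cells kept the Cd3 limit of the members. Median depth was 8364 UMIs in mature, 9544 in Cd209a+, 15700 in XCR1+ dendritic cells, 8711 in macrophages and 8951 in T cells.

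Flt3 and Zbtb46, named after their values had been seen, went with the dendritic cell label. Ccl22 had a UMI in 56.7% of members, in 7.06% of Cd209a+ cells, in 1.53% of macrophages and in 3.09% of T cells. As a marker that named the cells it is no independent check. Flt3, the receptor that sustains dendritic cells, stood at 110 CPM pooled over members, at 81.6 CPM in XCR1+ cells and at 0.770 CPM in macrophages. Zbtb46, a transcription factor of conventional dendritic cells, stood at 51.7 CPM in members, at 25.1 CPM in the 29 XCR1+ cells and at 0.737 CPM in macrophages. Both genes were near 0 in macrophages. The 8 pan-dendritic genes, led by Cd74, summed to 20012 to 23947 CPM in members and to 22253 to 40595 CPM in Cd209a+ cells. Pooled over macrophages they summed to 11175 CPM. Of 6 tested against Cd209a+ cells 2 were higher and 3 lower in members.

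Markers of other dendritic cell subsets were uneven in the members. Of 13 XCR1+ dendritic cell genes 11 were detected, with sums of 854 to 1292 CPM led by Irf8, of 14 Cd209a+ dendritic cell genes 14, with sums of 481 to 999.8 CPM led by Klrd1, and of 10 plasmacytoid genes 8, with sums of 828 to 1214 CPM led by Bst2. The XCR1+ list summed to 3842 CPM pooled over XCR1+ cells, and the Cd209a+ list to 2371 to 3507 CPM in Cd209a+ cells. The plasmacytoid list summed to 1465 CPM pooled over macrophages and to 1109 CPM over T cells. Cd209a was seen in 1.67% of members and in 2.36% of T cells, and Xcr1 in 0.833% and 0.454%. The Cd209a UMIs were uneven, with 46 of 54 in 1 member, and pooled over cells the gene stood at 24.5 CPM in members and at 1.11 CPM in macrophages. Itgae, an integrin of XCR1+ cells, and Siglech, of plasmacytoid cells, had 0 UMIs in 240 cells, which allows a share of cells with a UMI of up to 1.25%. The B cell gene Cd79a and the epithelial keratin Krt18 were at 0 as well. Trac, of the T cell receptor, had a UMI in 7.50% of members, against 71.1% of T cells and 6.98% of macrophages, which do not make it.

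Macrophage and monocyte transcripts were present in the members of every mouse. The 15 macrophage genes, all detected and led by Apoe, summed to 3634 and 5950 CPM in parental mice 1 and 3, to 3132, 1629 and 1142 CPM in E0771-Res1 mice 1 to 3 and to 3741, 2649 and 3408 CPM in E0771-Res2 mice 1 to 3. C1qa had a UMI in 59.2% of members and in 71.0% of T cells, which do not make it. Members below 5 C1q UMIs, the limit of the macrophage gate, were 28 of 36 and 6 of 9 in parental mice 1 and 3. In E0771-Res1 mice 1 to 3 they were 43 of 58, 8 of 8 and 16 of 19. In E0771-Res2 mice 1 to 3 they were 23 of 29, 29 of 36 and 31 of 45. The other members reached that limit. The 12 monocyte genes, all detected and led by Lyz2, summed to 1255 to 7417 CPM, the highest in E0771-Res1 mouse 2. Of 16 T cell genes 15 were detected, with Cd5 at 0 and sums of 262 to 378 CPM, led by Il7r, and of the 9 neutrophil genes 7 were detected, with sums of 73.9 to 415 CPM. The 11 natural killer cell genes summed to 252 to 840 CPM, led by Klrk1. Of 11 B cell genes 6 were detected, with sums of 0 to 67.9 CPM, and of 12 tumor or stromal genes 7 were, with sums of 0 to 36.6 CPM. Results without members of 5 or more C1q UMIs are given below for Il1b, for the counts of calls between tumors and for those between gates, and otherwise the part of these transcripts was not tested.

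No difference between tumor lines in the share of mature dendritic cells passed the test. In parental mice 1 and 3 they were 3.21% (36 cells, exact 95% confidence interval 2.26% to 4.41%) and 1.49% (9 cells, 0.682% to 2.81%) of kept cells. In E0771-Res1 mice 1, 2 and 3 they were 2.87% (58 cells), 1.32% (8 cells) and 2.03% (19 cells). In E0771-Res2 mice 1, 2 and 3 they were 1.57% (29 cells), 2.38% (36 cells) and 2.29% (45 cells). The parental values enclosed 5 of the 6 resistant values, and both mice with the fewest kept cells, 604 and 605, had the lowest shares.

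Parental tumors averaged 2.35% ± 1.22 (SD, n = 2 mice). E0771-Res1 tumors averaged 2.07% ± 0.774 (SD, n = 3 mice), and the mean of E0771-Res2 tumors was 2.08% ± 0.442 (SD, n = 3 mice). The resistant tumors together were 0.27 percentage points below the parental ones (two-sided exact permutation test over mice, p = 0.643, adjusted p = 1 over the 8 share tests). The direction turned without parental mouse 1 (0.591 points above) and with cells thinned to 3000 UMIs (0.364 points above). These intervals cover counting error alone, and those of the 2 parental mice overlapped. The smallest p such tests can give is 0.0357 for 2 against 6 mice and 0.1 for the comparisons of single lines, so a difference between single lines could not have passed 0.05.

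Among gated dendritic cells, that is mature, Cd209a+ and XCR1+ cells together, the mature cells held the larger place in 5 of 8 mice. Their share was 62.1% and 32.1% in parental mice 1 and 3, 54.7%, 38.1% and 45.2% in E0771-Res1 mice 1 to 3, and 54.7%, 52.9% and 71.4% in E0771-Res2 mice 1 to 3. Parental tumors averaged 47.1% ± 21.2 (SD, n = 2 mice). E0771-Res1 tumors averaged 46.0% ± 8.34 (SD, n = 3 mice), and the mean of E0771-Res2 tumors was 59.7% ± 10.2 (SD, n = 3 mice). E0771-Res2 stood 13.7 percentage points above E0771-Res1 (exact permutation p = 0.3, adjusted p = 1) and 12.6 points above parental (exact permutation p = 0.6, adjusted p = 1). None of these differences passed the test, in a design that could not give a p under 0.1 for single lines.

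**Figure D2:**
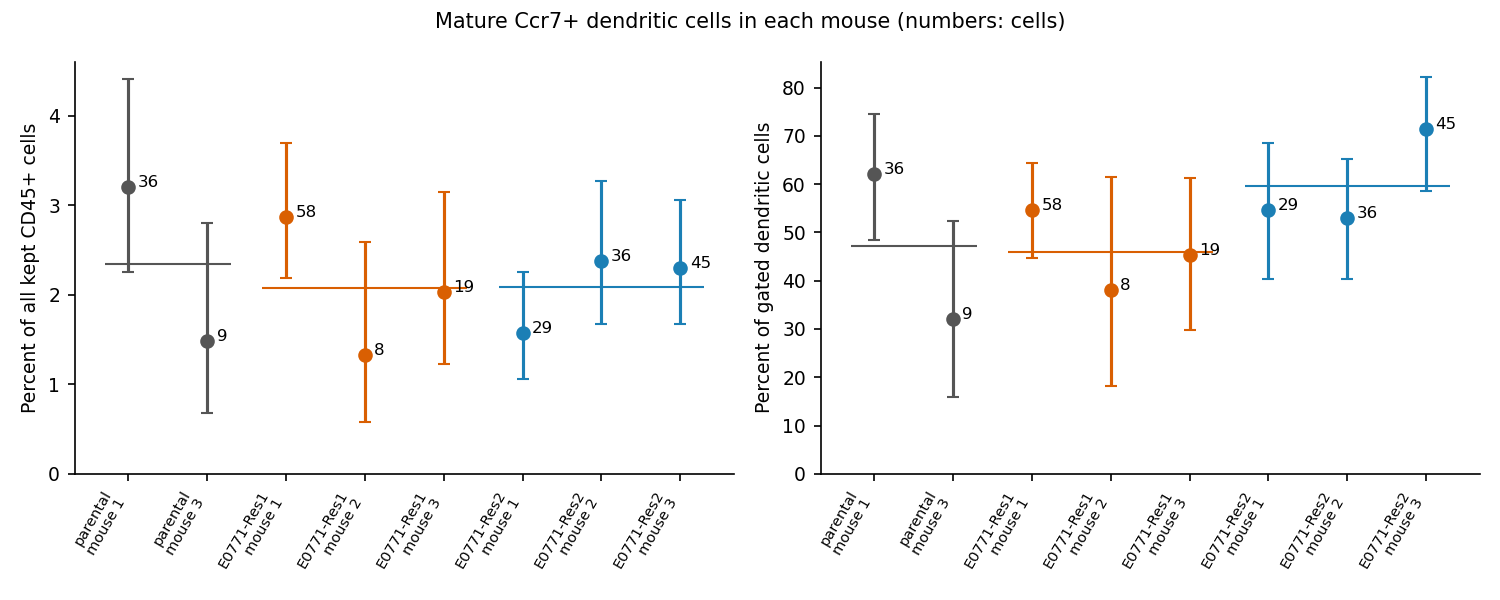
Percent of kept CD45+ cells (left) and of gated dendritic cells (right) that were mature dendritic cells in each mouse, with exact 95% binomial intervals, cell numbers beside the points and the group mean as a line. On the left the parental mice lie at 3.21% and 1.49% and enclose 5 of the 6 resistant mice.

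Mature cells were then set against the Cd209a+ dendritic cells of the same mouse, summing UMIs per mouse and gate, in the 6 mice with 10 or more cells in both gates. Parental mouse 3 (9 members) and E0771-Res1 mouse 2 (8 members) were not fitted. The cells of both gates were picked by their own transcripts, so genes that follow Ccr7, Fscn1 or Cd209a from cell to cell differ by that choice, and the p-values say how steady a difference was over mice. Of 2957 genes tested, 788 (26.6%) were higher and 773 (26.1%) lower in mature cells at an adjusted p under 0.05 (edgeR quasi-likelihood test with mouse as a block, Benjamini-Hochberg adjustment). Without members of 5 or more C1q UMIs, an alternative added after the data had been seen, 1492 of 2579 genes were called, and 1357 of them were among the 1561 of all members. Groups of genes are described by their counts beside these shares, and the median over all genes tested was a log2 fold change of 0.01.

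Of 22 mature dendritic cell markers 17 were tested, and 17 were higher, with a median log2 fold change of 4.08. The others were the gate genes, or too low in counts to be fitted. This list names such cells and was not independent of the gate. Relb, the NF-kB subunit of the noncanonical pathway, ran from 415 to 663 CPM in the mature cells of the 8 mice (median 543) and from 34.4 to 89.5 CPM in Cd209a+ cells (median 53.1). The mature value was the higher one in all 8 mice, without overlap, and the fitted log2 fold change was 3.50 (SE 0.17, n = 6 mice, edgeR adjusted p = 1.79e-10). Tbc1d4, a Rab GTPase-activating protein, ran from 1771 to 2392 CPM against 15.3 to 82.6 CPM (5.84, SE 0.18, edgeR adjusted p = 3.04e-12). Samsn1 (median 920 against 55.3 CPM), Tmem123 (1287 against 94.7 CPM) and Traf1 (1201 against 376 CPM), an adaptor of TNF receptor signaling, did not overlap either.

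The largest differences were in genes near 0 in Cd209a+ cells. Cacnb3, a calcium channel subunit, had 851 UMIs in mature cells and 0 in Cd209a+ cells, which makes it at least 239.7-fold higher when 3 UMIs are taken as the floor over the whole Cd209a+ gate. Cacna1s, the pore subunit of a calcium channel, was at least 45.1-fold higher by the same floor. Tcf7, a transcription factor best known in T cells, had 204 UMIs against 1, a ratio of 172 with a 95% counting interval of 30.6 to 6842. Mreg (melanoregulin) had 225 against 1, a ratio of 190 (33.8 to 7543), Nudt17 a ratio of 124 (34.0 to 1027) and Bcl2l14 a ratio of 117 (39.7 to 569). Serpinb9, the inhibitor of granzyme B, ran from 356 to 459 CPM against 0 to 23.5 CPM (log2 fold change 6.63, SE 0.30, edgeR adjusted p = 1.05e-10). Its relative Serpinb6b ran from 634 to 1081 CPM against 0 to 19.1 CPM (7.62, SE 0.32, edgeR adjusted p = 5.90e-11).

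Costimulation genes were mostly higher. Of 13 costimulation genes in the files 8 were tested, of which 5 were higher and 2 lower. Cd80, a ligand of CD28, ran from 88.8 to 195 CPM in mature cells (median 119) and from 19.1 to 76.4 CPM in Cd209a+ cells (median 32.4), without overlap (2.13, SE 0.21, edgeR adjusted p = 3.53e-07). Cd83, which keeps MHC class II and CD86 at the surface, had a median of 686 against 351 CPM (1.11, SE 0.15, edgeR adjusted p = 1.33e-05), also without overlap. Cd40, the receptor for help from CD4 T cells, had a median of 253 against 140 CPM (0.95, SE 0.14, edgeR adjusted p = 3.90e-05), and its ranges overlapped. Cd86, the other CD28 ligand, had 282 against 225 CPM and did not pass the test (0.41, SE 0.17, edgeR adjusted p = 0.0537). Cd48, a ligand of CD244, was lower at 87.7 against 262 CPM.

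Inhibitory and regulatory genes moved in both directions. Of 20 genes on that list 11 were tested, of which 7 were higher and 4 lower, with a median log2 fold change of 1.89. Cd274, which encodes PD-L1, was at 317 and 476 CPM in parental mice 1 and 3, at 298, 237 and 225 CPM in E0771-Res1 mice 1 to 3 and at 348, 376 and 238 CPM in E0771-Res2 mice 1 to 3. In Cd209a+ cells it ran from 52.8 to 139 CPM, below every mature value (1.89, SE 0.19, edgeR adjusted p = 6.57e-07). Pdcd1lg2 (PD-L2) had a median of 59.6 against 8.52 CPM, and Il4i1, an enzyme that oxidizes aromatic amino acids, of 572 against 37.3 CPM. Cd200, an inhibitory ligand for myeloid cells, ran from 134 to 303 CPM against 0 to 13.8 CPM, and Socs2, a brake on cytokine signaling, from 370 to 607 CPM against 0 to 52.9 CPM. Tgfb1 went the other way, at a median of 101 against 228 CPM (-1.11, SE 0.15, edgeR adjusted p = 9.54e-06), as did Lgals9 (44.5 against 138 CPM) and Socs3 (87.1 against 249 CPM).

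The chemokines split. Of 14 in the files 11 were tested, of which 3 were higher and 5 lower, with a median log2 fold change of -0.51. Ccl5, a chemokine that attracts T cells, was at 8203 and 6755 CPM in parental, 7220, 15294 and 8308 CPM in E0771-Res1 and 8684, 5613 and 7092 CPM in E0771-Res2 mature cells. Its highest value in Cd209a+ cells was 869 CPM (4.95, SE 0.42, edgeR adjusted p = 8.01e-08), and its pooled level was 850 CPM in macrophages and 1338 CPM in T cells. Ccl22 itself was at 462 and 85.4 CPM in parental, 394, 178 and 478 CPM in E0771-Res1 and 312, 521 and 639 CPM in E0771-Res2 mature cells. Mature cells were above the Cd209a+ cells of their own mouse in all 8 mice (3.95, SE 0.38, n = 6 mice fitted, edgeR adjusted p = 3.34e-07). Ccl22 was named as a label marker, so this is no independent check. Cxcl16, which attracts CXCR6-bearing T cells, had a median of 760 against 238 CPM (1.82, SE 0.14, edgeR adjusted p = 2.03e-08).

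The CXCR3 ligands were lower. Cxcl10 ran from 92.7 to 1190 CPM in mature cells (median 346) and from 1281 to 2165 CPM in Cd209a+ cells (median 1820), without overlap (-2.22, SE 0.38, edgeR adjusted p = 0.000115). Cxcl9 had a median of 75.1 against 198 CPM (-1.75, SE 0.24, edgeR adjusted p = 1.69e-05), with overlapping ranges. Ccl4 (468 against 1186 CPM), Ccl9 (58.9 against 277 CPM) and Ccl6 (70.5 against 251 CPM) were lower too. Ccl17, the other CCR4 ligand, was seen in 15 members, and 68.3% of its UMIs came from 1 cell.

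A share of the mature cells held Il12b. This gene, which encodes the p40 subunit shared by IL-12 and IL-23, had a UMI in 20.4% of members and in 15.9% after every cell was thinned to 3000 UMIs, against 0.998% of T cells and 0.487% of macrophages. Pooled over cells it stood at 169 CPM in mature and at 27.2 CPM in XCR1+ cells. Among 170 Cd209a+ cells there were 0 Il12b UMIs, which allows a share of cells with a UMI, not of cells expressing the gene, of up to 1.76%, and the level in mature cells was at least 105-fold higher by the floor of 3 UMIs. Il12a, the other subunit of IL-12, had 0 UMIs in the 240 members (a share of cells with a UMI of up to 1.25%). Of the 6 cytokine genes tested 3 were higher, among them Il15 (52.4 against 25.9 CPM, 1.19, SE 0.27, edgeR adjusted p = 0.00148), a T and natural killer cell cytokine, and 1 was lower. That one was Il1b, at a median of 931 against 1394 CPM (-0.67, SE 0.17, edgeR adjusted p = 0.00300).

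Of 23 cytokine and chemokine receptors 20 were tested, of which 8 were higher and 7 lower, with a median log2 fold change of 0.08. Tnfrsf4 (OX40) ran from 133 to 423 CPM against 0 to 12.9 CPM (5.60, SE 0.27, edgeR adjusted p = 1.91e-10). Il2ra, the alpha chain of the IL-2 receptor, ran from 73.2 to 222 CPM against 0 to 8.05 CPM, Il7r from 163 to 308 CPM against 0 to 44.7 CPM and Il15ra from 59.2 to 97.6 CPM against 0 to 11.5 CPM. Flt3 had a median of 104 against 27.9 CPM. Ccr2, the receptor that recruits monocytes and their kin, ran from 7.99 to 171 CPM against 214 to 519 CPM (-2.66, SE 0.27, edgeR adjusted p = 5.32e-07). Csf2ra and Ifngr1 were lower as well, at 138 against 237 CPM and 50.9 against 142 CPM.

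MHC class I genes were mostly higher while class II genes split. Of 20 class I and peptide loading genes tested 14 were higher and 3 lower, with a median log2 fold change of 0.84. H2-K1, a class I heavy chain, ran from 2724 to 3601 CPM against 1294 to 1783 CPM (1.12, SE 0.11, edgeR adjusted p = 3.76e-07), and B2m, the light chain, from 4938 to 6247 CPM against 2815 to 3779 CPM (0.84, SE 0.09, edgeR adjusted p = 1.79e-06). H2-Q7 had a median of 941 against 204 CPM, but reads of the H2-Q genes can be shared between near-identical copies. Calr (calreticulin), which holds class I chains for loading, was lower (286 against 510 CPM).

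Of 14 class II genes tested 4 were higher and 5 lower. H2-Aa, a class II alpha chain, had a median of 6737 against 7527 CPM and did not pass the test (-0.08, SE 0.11, edgeR adjusted p = 0.565). H2-Ab1, a class II beta chain, had 4646 against 7810 CPM and was lower (-0.81, SE 0.11, edgeR adjusted p = 1.79e-05). Cd74, the invariant chain, had 10766 against 17320 CPM (-0.64, SE 0.09, edgeR adjusted p = 3.09e-05). The peptide exchange gene H2-DMb1 ran from 107 to 311 CPM against 934 to 1549 CPM (-2.88, SE 0.12, edgeR adjusted p = 5.90e-11), and its partner H2-DMa from 181 to 267 CPM against 764 to 1026 CPM. H2-Eb2 was higher, with a median of 238 against 6.67 CPM. H2-DMb1, H2-DMa, H2-Ab1 and H2-Eb2 did not overlap between the gates.

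Of 21 NF-kB genes tested 12 were higher and 2 lower, with a median log2 fold change of 0.95. The noncanonical members were among the higher ones: besides Relb, Nfkb2 (p100, 187 against 57.3 CPM, 1.89, SE 0.23, edgeR adjusted p = 5.06e-06) and Map3k14, the kinase NIK (138 against 20.3 CPM). Rel (c-Rel) had a median of 645 against 366 CPM (1.12, SE 0.15, edgeR adjusted p = 9.13e-06), and the survival genes Bcl2a1b (2342 against 489 CPM) and Birc2 (433 against 41.6 CPM) did not overlap. Nfkb1, the canonical p105 gene, had 184 against 232 CPM and did not pass the test (-0.23, SE 0.18, edgeR adjusted p = 0.290).

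**Figure D3:**
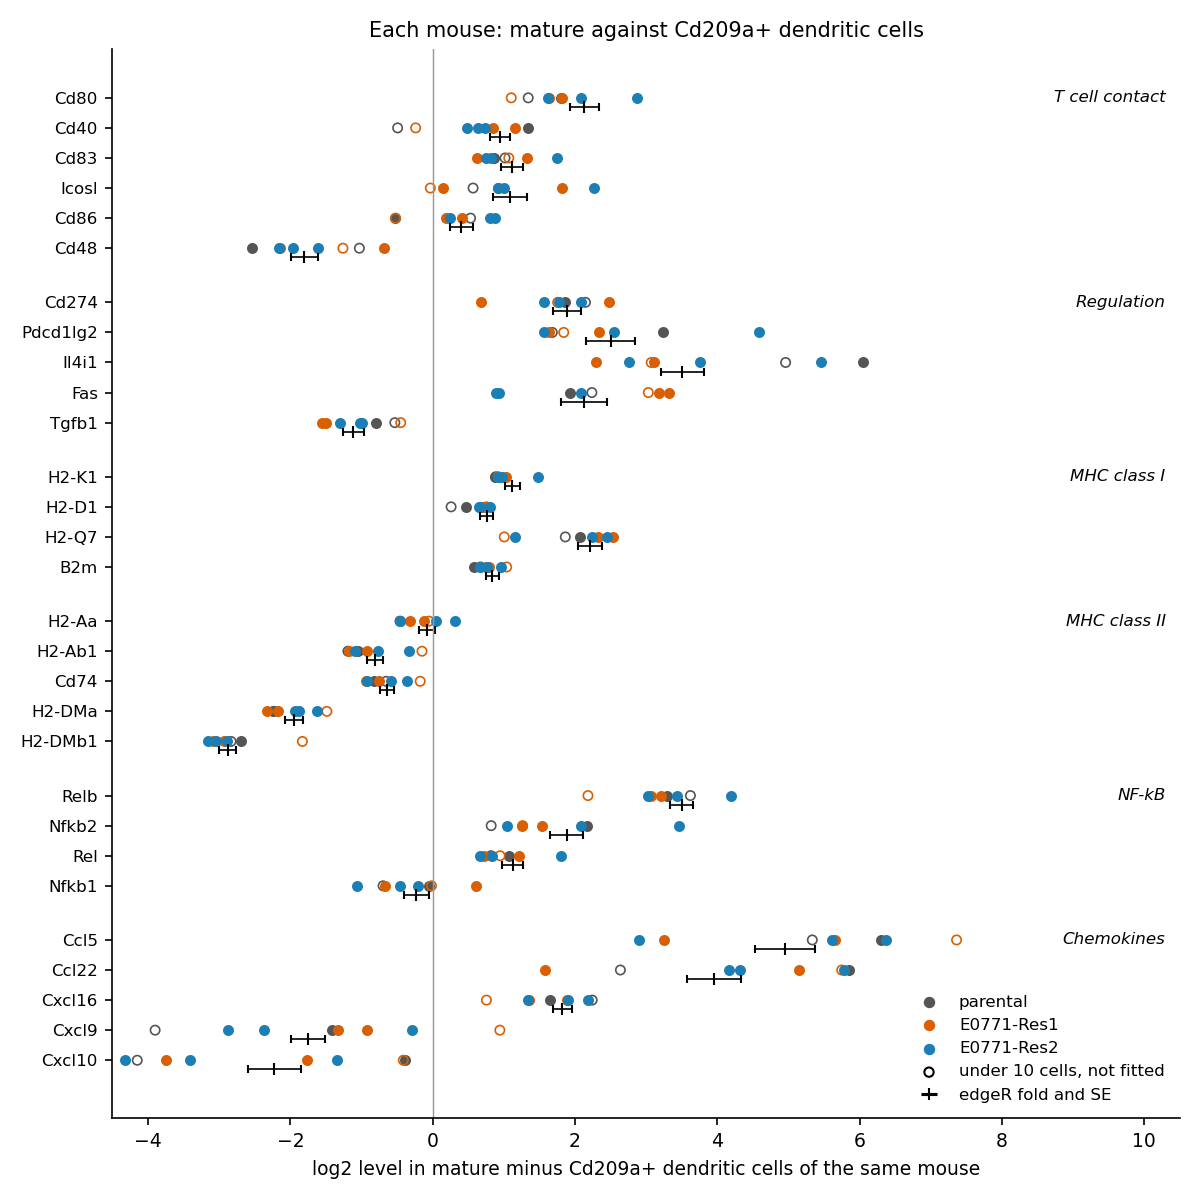
Log2 level in mature minus Cd209a+ dendritic cells of the same mouse (x axis, from CPM) for named genes (y axis), 1 point per mouse colored by tumor line, with open points for the 2 mice under 10 members and the edgeR fold change with its SE below each row. H2-K1, Relb and Ccl5 lie right of 0 in all 8 mice and H2-DMb1 and Cxcl10 left of 0 in all 8, while Nfkb1 and H2-Aa lie on both sides.

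Because NF-kB and MHC class I genes differed, their promoters (250 bases before to 50 bases after the start, RefSeq, GRCm38.p6) were searched for the kappa B letters GGGAA, any 3 letters and CC, on both strands. The letters stood in 7 of 18 matched NF-kB genes (38.9%) and 6 of 18 class I genes (33.3%), against 6.59% of 27025 genes, 8.90% of those tested, 9.05% of those higher and 9.24% of those lower in mature cells. Of the chemokines 6 of 11 (54.5%) and of the mature dendritic cell markers 1 of 18 (5.56%) held them. The shares of lists count every matched gene, called or not. Of the NF-kB genes with the letters only Nfkb2 and Rel were called higher in mature cells. All 6 class I genes with the letters were called higher. A match is a description of the letters and not a site of binding. The windows below run 5′ to 3′ on the strand of the gene, with the 10 matched letters in capitals, which read as the reverse complement of the motif in the H2-K1 and H2-D1 windows. They show how alike the H2-K1 and H2-D1 windows are, and for Nfkb2 the first of 2 matches is printed. The positions are chr19:46304678-46304727 (plus strand) for Nfkb2, chr11:23771032-23771081 (minus) for Rel, chr17:34000429-34000478 (minus) for H2-K1, chr17:35262903-35262952 (plus) for H2-D1 and chr2:122147540-122147589 (plus) for B2m. Ccr7, Relb and Ccl5 were not matched.
Nfkb2: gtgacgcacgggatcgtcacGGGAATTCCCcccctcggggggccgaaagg
Rel: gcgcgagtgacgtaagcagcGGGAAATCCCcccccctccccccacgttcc
H2-K1: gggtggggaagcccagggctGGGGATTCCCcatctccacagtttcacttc
H2-D1: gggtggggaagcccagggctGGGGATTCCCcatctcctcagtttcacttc
B2m: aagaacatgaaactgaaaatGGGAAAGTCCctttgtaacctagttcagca

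Transcription factors of dendritic cells were split, 10 of 20 higher and 7 lower. Irf8, needed for XCR1+ cells, ran from 581 to 1039 CPM against 84.0 to 193 CPM (2.80, SE 0.14, edgeR adjusted p = 3.94e-10), and Batf3, its partner, had a median of 151 against 56.5 CPM. Stat4, which relays IL-12 signals, ran from 334 to 469 CPM against 11.5 to 32.0 CPM, and Id2, an inhibitor of E proteins, from 415 to 1022 CPM against 48.1 to 205 CPM. Klf4 (218 against 385 CPM) and Spi1 (PU.1, 436 against 701 CPM) were lower.

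Migration and cytoskeleton genes were mostly higher, 17 of 20 tested, with 2 lower and a median log2 fold change of 1.26. Tmsb4x, which holds free actin, ran from 31336 to 48634 CPM against 15342 to 21471 CPM (1.22, SE 0.08, edgeR adjusted p = 8.17e-09), and Actb from 18269 to 22005 CPM against 12329 to 17697 CPM. Marcks and Marcksl1, substrates of protein kinase C at the membrane, had medians of 1291 against 266 CPM and 652 against 107 CPM. Vim (vimentin) was lower, at 1312 against 3570 CPM.

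Uptake, innate sensing and interferon genes were mostly lower. Of 19 uptake and sensing genes tested 13 were lower and 1 higher (median log2 fold change -0.98), and of 23 type I interferon response genes 15 were lower and 2 higher (-0.86). Clec10a, a galactose-binding lectin, ran from 0 to 27.7 CPM against 164 to 470 CPM (-4.91, SE 0.37, edgeR adjusted p = 2.01e-08). Fcgr1, the high-affinity IgG receptor, had a median of 129 against 384 CPM and Cd68, of lysosomes, 272 against 483 CPM. Ifit3, an interferon-induced antiviral gene, had 165 against 536 CPM, whereas Isg15 did not pass the test (1467 against 1733 CPM, -0.04, SE 0.13, edgeR adjusted p = 0.839). Olfm1, Naaa, Plbd1, Itgb7, Ifitm6, Klrb1b, Cd7, Bex6 and March1 completed the 10 largest decreases, with fitted log2 fold changes of -3.56 (Olfm1) to -2.98 (Bex6). Of 6 monocyte markers tested 6 were lower and of 11 macrophage markers 4 were lower and 0 higher.

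**Figure D4:**
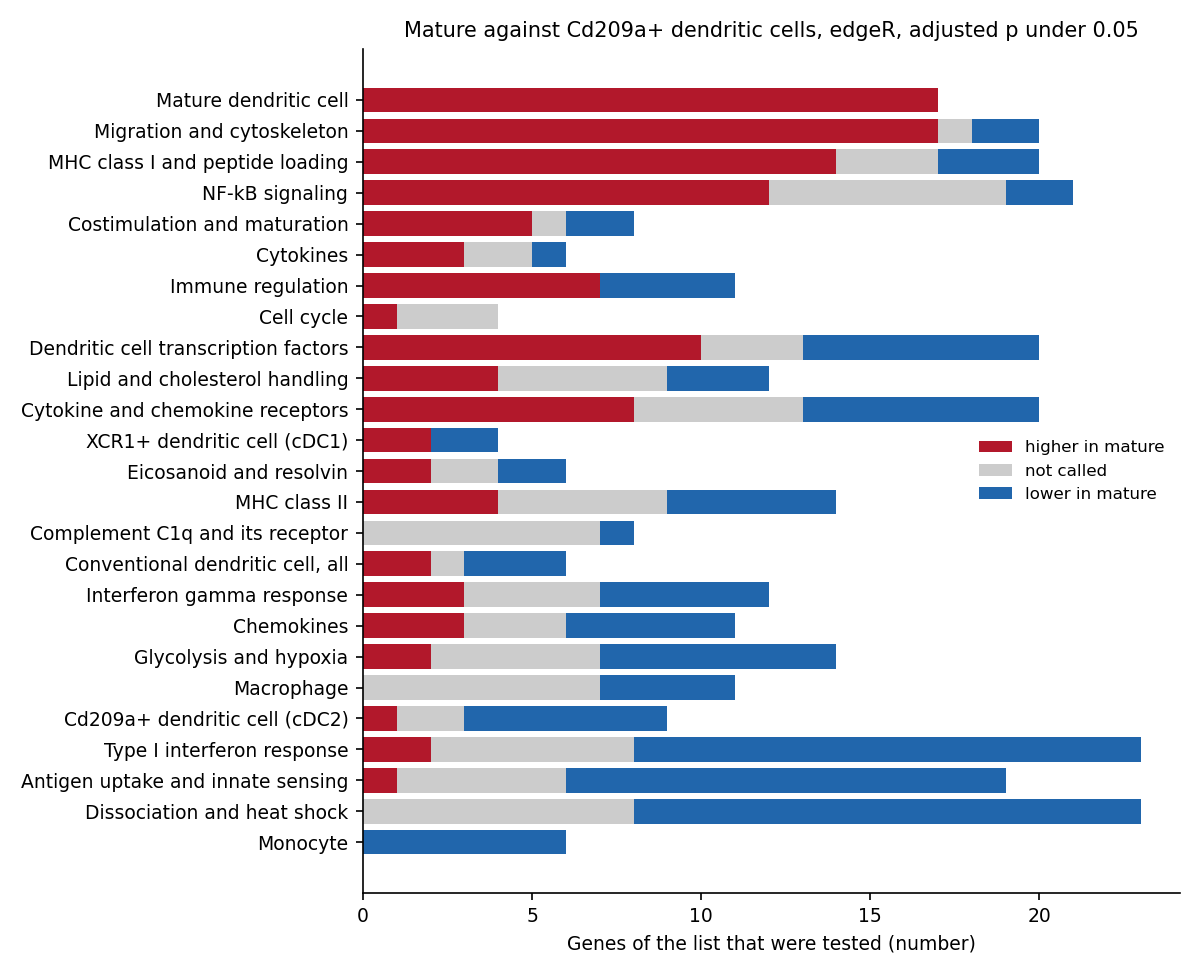
Number of genes tested in each list (bar length, x axis) that were higher, lower or not called in mature against Cd209a+ dendritic cells (edgeR, adjusted p under 0.05); lists with fewer than 4 genes tested are not drawn. Of all genes tested 26.6% were higher and 26.1% lower, while 17 of 17 mature markers were higher and 15 of 23 type I interferon genes lower.

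Some genes followed the gate sum among members. In the 82 members with a sum of 3 to 20 and in the 158 above 20, Serpinb6b was at 524 and 1041 CPM, Cd200 at 143 and 278 CPM, Cd86 at 173 and 291 CPM, Cd40 at 176 and 270 CPM and Tnfrsf4 at 178 and 309 CPM. Each was higher in the upper class in 8 of 8 mice. The lower class held only 1 cell in E0771-Res1 mouse 3 and 3 cells each in parental mouse 3 and E0771-Res1 mouse 2. In those mice the direction rests on these few cells. Pooled levels of other genes were lower in the upper class, but less evenly over mice. Flt3 was at 135 and 100 CPM (higher in the upper class in 2 of 8 mice) and Tgfb1 at 132 and 94.2 CPM (3 of 8). Of macrophage and monocyte genes C1qa was at 633 and 413 CPM (4 of 8) and Lyz2 at 2029 and 1345 CPM (3 of 8). Median depth was 5619 UMIs at a sum of 3 to 5, 6729 UMIs at 6 to 20 and 9005 UMIs above 20, and its part was not tested. Relb was at 302 CPM in the 17 members nearest the limit and at 572 CPM in the 158 above 20. Since both classes were cut from the gate genes, this is given without a test.

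The 3 tumor lines were compared over the mature cells of the mice with 10 or more members, which left 1 parental, 2 E0771-Res1 and 3 E0771-Res2 mice. The lone parental mouse is assumed to vary like the others. Of 4616 genes tested, 3 (0.065%) were called between resistant and parental, 1 (0.0217%) between E0771-Res1 and parental, 3 (0.065%) between E0771-Res2 and parental and 3 (0.065%) between E0771-Res2 and E0771-Res1 tumors (edgeR quasi-likelihood test, adjusted p under 0.05). At an unadjusted p under 0.05 the counts were 237, 202, 248 and 241. With all 8 mice, a fit added after the data had been seen, 0 (0%), 0 (0%), 1 (0.0266%) and 0 (0%) of 3760 genes were called, with 224, 186, 251 and 177 at an unadjusted p under 0.05. DESeq2 on the 8 mice called 3, 0, 4 and 0.

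Il1b, the proinflammatory cytokine IL-1β (chr2:129364570-129371139), was lowest in E0771-Res2 tumors. It stood at 1094 and 2719 CPM in parental mice 1 and 3, at 837, 1110 and 1025 CPM in E0771-Res1 mice 1 to 3 and at 376, 531 and 413 CPM in E0771-Res2 mice 1 to 3. The E0771-Res2 mice lay below all 5 others. The log2 fold change of E0771-Res2 against E0771-Res1 was -1.10 (SE 0.19, edgeR adjusted p = 0.0445) in 6 mice and -1.16 (SE 0.27, edgeR adjusted p = 0.324) in 8. Against parental tumors it was -1.23 (SE 0.23, edgeR adjusted p = 0.0517) in 6 mice and -1.97 (SE 0.29, edgeR adjusted p = 0.0139) in 8, the 1 call of the larger fit. In 8 mice that call was lost without parental mouse 3 (-1.23, edgeR adjusted p = 0.115) and without E0771-Res2 mouse 1, 2 or 3 (-2.13 to -1.87, edgeR adjusted p = 0.0630 to 0.0768). The call against E0771-Res1 held without E0771-Res1 mouse 1 (-1.25, edgeR adjusted p = 0.0169) and was lost without any other single mouse (-1.25 to -0.92, edgeR adjusted p = 0.0544 to 0.405). Without members of 5 or more C1q UMIs it was -1.30 (edgeR adjusted p = 0.0297). The call against E0771-Res1 was lost in 17 of 26 alternative settings, among them a gate sum of 2 and the replicate number as a block.

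The level of Il1b in other gates of the same mice bears on these values. T cells, which are not known to make it, held 808 and 786 CPM in parental, 884, 835 and 704 CPM in E0771-Res1 and 798, 681 and 561 CPM in E0771-Res2 tumors. The E0771-Res2 mature cells lay below the T cells of their own mouse. In macrophages Il1b was at 2003 and 2071 CPM in parental, 1341, 1839 and 1724 CPM in E0771-Res1 and 1086, 819 and 941 CPM in E0771-Res2 tumors, lowest in the same line. In Cd209a+ cells it was at 1560 and 1621 CPM in parental, 1764, 1624 and 953 CPM in E0771-Res1 and 626, 893 and 1228 CPM in E0771-Res2 tumors, where the resistant lines overlapped. Whether the E0771-Res2 values differed more in mature than in Cd209a+ cells was not tested. A different change of both resistant lines together from parental tumors in mature than in Cd209a+ cells was called for 1 of 4777 genes (0.0209%), Mgl2.

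Il1r2, the decoy receptor of IL-1 (chr1:40074079-40125231), was at 259 and 317 CPM in parental, 85.6, 385 and 151 CPM in E0771-Res1 and 67.9, 60.5 and 67.3 CPM in E0771-Res2 mature cells. The E0771-Res2 mice lay below every other mouse, but when the cell richest in Il1r2 was left out of each mouse E0771-Res1 mouse 2 had 21.8 CPM and the E0771-Res2 mice 41.2 to 49.4 CPM. E0771-Res2 was lower than parental in 6 mice (-1.90, SE 0.32, edgeR adjusted p = 0.0266) and missed the threshold in 8 (-2.00, SE 0.42, edgeR adjusted p = 0.162). The call was lost without E0771-Res2 mouse 1 (edgeR adjusted p = 0.130) or mouse 2 (edgeR adjusted p = 0.0981). It was also lost at a gate sum of 5 and with DESeq2 in 6 mice. In parental mouse 1, 44 of the 84 Il1r2 UMIs came from 1 cell. In T cells of the E0771-Res2 mice Il1r2 was at 69.3, 70.4 and 86.3 CPM, above the mature cells of the same mouse. T cells were also above mature cells in E0771-Res1 mouse 1 (95.6 against 85.6 CPM), and below them in the remaining mice. In macrophages it was at 18.9 to 21.8 CPM in E0771-Res2 and at 40.0 to 96.8 CPM in the other mice, lowest in the same line. Il1r2 is on the list of neutrophil markers too, and those summed to 293 and 329 CPM in parental, 114, 415 and 161 CPM in E0771-Res1 and 79.9, 73.9 and 98.5 CPM in E0771-Res2 members, with Mmp9 and G0s2 at 0 in every member.

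Ccnd1, which encodes cyclin D1 (chr7:144929931-144939925), was highest in E0771-Res2 tumors. It was at 317 and 73.2 CPM in parental, 144, 296 and 239 CPM in E0771-Res1 and 456, 450.4 and 481 CPM in E0771-Res2 mature cells. The E0771-Res2 mice lay above all others. Against E0771-Res1 the log2 fold change was 1.31 (SE 0.23, edgeR adjusted p = 0.0474) in 6 mice and 1.16 (SE 0.32, edgeR adjusted p = 0.544) in 8. The call held without E0771-Res1 mouse 3 (1.69, edgeR adjusted p = 0.00578) and was lost without any other single mouse (0.92 to 1.33, edgeR adjusted p = 0.0544 to 0.405). Of 26 alternative settings 20 lost the call, among them a gate sum of 2, the replicate block and DESeq2 in 6 mice. A few cells carried many of the Ccnd1 UMIs. In 1 cell each lay 40 of the 81 UMIs of E0771-Res1 mouse 1 and 64 of the 134 UMIs of E0771-Res2 mouse 2. With the richest cell of each mouse left out, the levels were 268 and 54.8 CPM in parental, 75.6, 65.5 and 110 CPM in E0771-Res1 and 322, 247 and 437 CPM in E0771-Res2 mice. E0771-Res2 then overlapped with parental and not with E0771-Res1 tumors.

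Several other called genes had most of their UMIs in single cells. Hmox1, heme oxygenase 1, was lower in E0771-Res2 than in E0771-Res1 (-2.81, SE 0.45, edgeR adjusted p = 0.0380), a call lost in 18 of 26 alternative settings. Of the 224 UMIs of E0771-Res1 mouse 1, 175 lay in 1 cell. Without that mouse the value was -0.99 (edgeR adjusted p = 0.530). Cd209a, a lectin of other dendritic cells, was lower in resistant tumors (-6.44, edgeR adjusted p = 0.000423), with 46 of its 54 UMIs in 1 cell of parental mouse 1 and 4 members in all with a UMI. Mgl2, a related lectin (-3.28, edgeR adjusted p = 0.00523), had 39 of the 44 UMIs of parental mouse 1 in 1 cell. Ifitm1 (-1.89, edgeR adjusted p = 0.0307) overlapped between the groups. Cd209a, Mgl2 and Ifitm1 are named because they were called, after their values had been seen. With a gate sum of 5 or more there were 0 calls in the 3 comparisons with parental tumors, with 238, 224 and 254 genes at an unadjusted p under 0.05.

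Il12b stood at 244 and 939 CPM in parental mice 1 and 3, at 125, 14.8 and 4.88 CPM in E0771-Res1 mice 1 to 3 and at 172, 195 and 106 CPM in E0771-Res2 mice 1 to 3. The 6 resistant mice lay below both parental mice. The difference did not pass the test in 6 mice (-1.02, SE 0.47, edgeR adjusted p = 0.957) or in 8 (-2.18, SE 0.50, edgeR adjusted p = 0.316), and 1 cell gave 40 of the 79 UMIs of parental mouse 1 and 48 of the 77 of parental mouse 3. With the richest cell of each mouse left out, parental mouse 1 was at 124 CPM, below the 133 CPM of E0771-Res2 mouse 2. Irf8 showed the same order, at 1039 and 1012 CPM in parental tumors and at 581 to 860 CPM in resistant tumors (-0.45, SE 0.16, edgeR adjusted p = 0.793 in 8 mice).

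**Figure D5:**
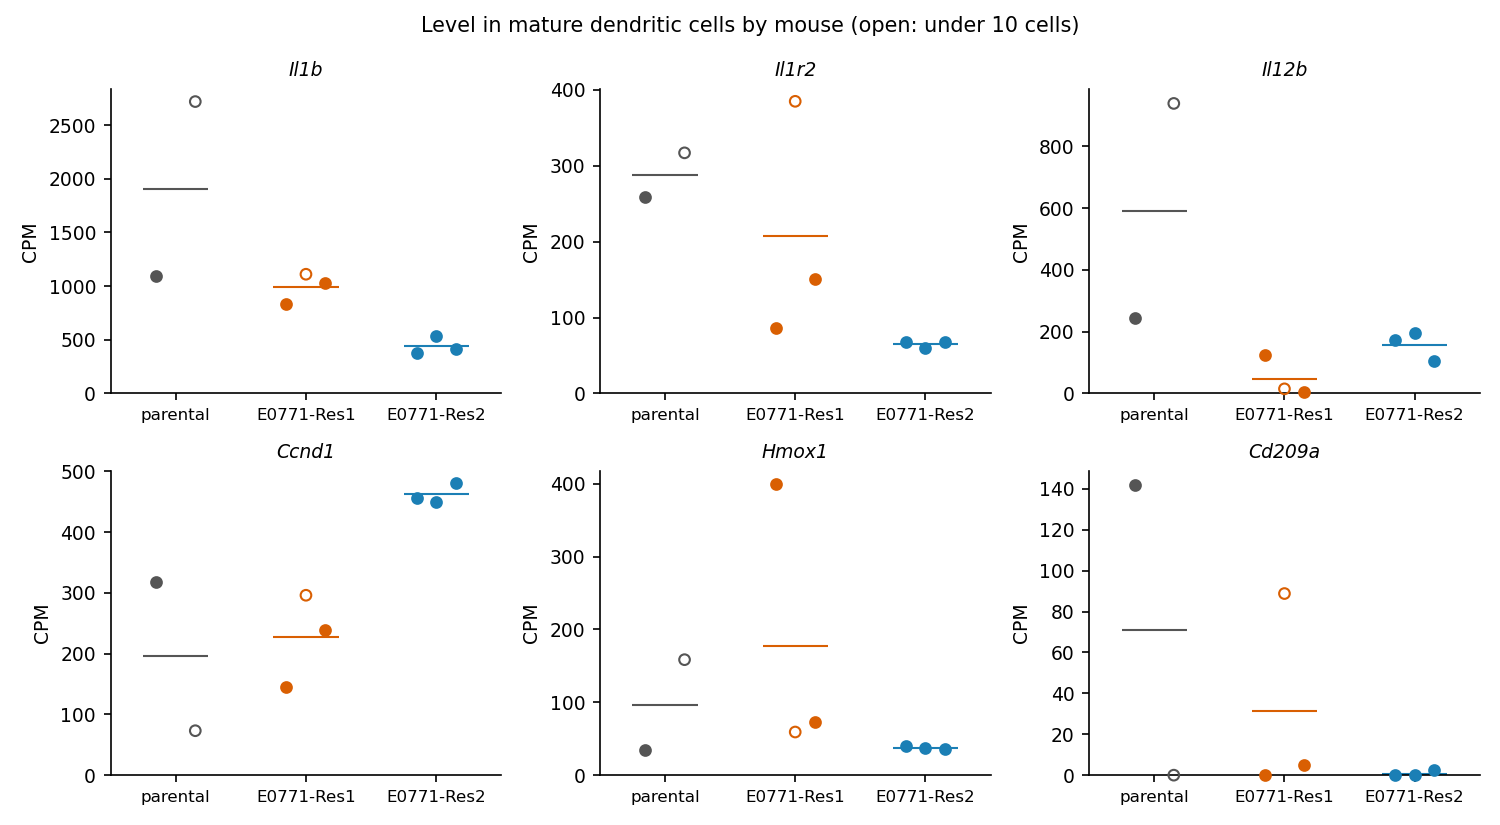
CPM (y axis) of 6 genes in the mature dendritic cells of each mouse by tumor line (x axis), with open points for the mice under 10 members and the group mean as a line. E0771-Res2 mice are lowest for Il1b (376 to 531 CPM) and highest for Ccnd1 (450.4 to 481 CPM), 1 mouse stands out for Hmox1 (399.5 CPM), and Cd209a reaches 142 and 88.8 CPM in 1 parental and 1 E0771-Res1 mouse.

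No gene that marked mature cells passed the test between resistant and parental tumors. Of 20 marker genes tested in the 6 mice 0 were called (edgeR, 1 at an unadjusted p under 0.05), with a median log2 fold change of 0.15 beside 0.03 over all genes. Relb was at 549 and 536 CPM in parental tumors and at 415 to 663 CPM in resistant tumors, a log2 difference of 0.08 (SE 0.21, edgeR adjusted p = 0.992). For Cd274 the difference was -0.03 (SE 0.27, edgeR adjusted p = 0.998), for H2-K1 0.00 (SE 0.16, edgeR adjusted p = 0.999) and for Ccl22 0.10 (SE 0.29, edgeR adjusted p = 0.992). With 8 mice the values were 0.06 for Relb, -0.30 for Cd274 (edgeR adjusted p = 0.905), 0.11 for H2-K1 and 0.51 for Ccl22 (edgeR adjusted p = 0.905). Parental mouse 3, not fitted in the 6, had the highest Cd274 (476 CPM) and the lowest Ccl22 (85.4 CPM) of all mice. Of the costimulation, immune regulation, MHC class I, MHC class II and NF-kB lists, 0 of 10, 12, 21, 14 and 23 genes tested were called (edgeR), with 0, 1, 0, 2 and 0 at an unadjusted p under 0.05. A p above the threshold in so few mice does not show that levels were equal.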

How the data were processed

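Single-cell 3′ RNA counts of CD45+ (DAPI-) cells were deposited by the authors, 1 filtered matrix per mouse, as raw UMI counts of 32285 genes and 9 sample tags, made with Cell Ranger 6.1.2 per the file headers on mm10 (with Seurat among the tools listed in the submitters' processing notes). Tissue had been digested with collagenase at 37°C per the labels. Another parental mouse was not analysed here. The members and gene lists were chosen with earlier results of these data known.

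Cells were filtered and gated as given in the report (scanpy 1.11.5, Python 3.11.15). No doublets were removed: Scrublet marked 55 of 10605 kept cells and 1 of 240 members, and the highest 5% of scores were left out as an alternative. UMIs were summed per mouse over members, after dropping tags, gate genes and mt-, Rpl, Rps and Gm genes (20.1% of member UMIs), and tested with edgeR 4.0.16 (filterByExpr, TMM, glmQLFit, Benjamini-Hochberg) over mice, or with mouse as a block between gates. Genes were matched to RefSeq promoters by symbol. CPM are UMIs for every 1000000 UMIs of all genes in those cells. In fits between gates, TMM moved the median gene from between -0.14 and 0.08 in single mice to 0.01 (log2). The test was also run on simulated data, whose outcome is not reported here. Shares were compared by exact permutation over mice. The mice are separate animals, but whether tumors were grown or sorted in several rounds is not given in the sources used here.

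Genes were named by rule: the largest called changes of one sign in every mouse (gates) or without overlap (tumors), members at 100 CPM or more of 6 lists, and 4 genes of each other list. Nfkb2, Rel, Nfkb1, Map3k14, Birc2, H2-K1, H2-Q7, H2-Ab1, H2-DMa, H2-Eb2, Stat4, Klf4, Spi1, Marcks, Vim, Ifit3, Il15, Il15ra, Pdcd1lg2, Ccl6, Ccl9, Cd48, Cd80, Lgals9, Socs3, Flt3, Zbtb46, Ccr2, Ifngr1, Ccl17, Atf3, Hspa1a and the markers at 0 were named after their values had been seen, also where the rule covers them. Alternatives were DESeq2 1.42.0, its size factors in edgeR, no count filter, all gene classes kept, a Cd209a gate of 1 UMI, other gate sums, thinning to 3000 UMIs, no members of 5 or more C1q UMIs, the replicate number as a block and leaving out each mouse. Levels without the richest cell of each mouse were added after the data had been seen.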

Additional observations from a re-analysis of the deposited data

Results flagged for a closer look

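A difference between 2 changes singled out 4 results. For Il1b, Ccnd1 and Hmox1 it is the comparison of E0771-Res2 with E0771-Res1 given above, since the parental level cancels. Only Mgl2 came from a separate test of 2 changes. Il1b in mature dendritic cells changed from parental tumors by a log2 value of -1.10 more in E0771-Res2 than in E0771-Res1 (edgeR adjusted p = 0.0445 in 6 mice), and the E0771-Res2 values of 376, 531 and 413 CPM lay below the 561 to 798 CPM of T cells in the same tumors. Ccnd1 was higher in E0771-Res2 than in E0771-Res1, at a log2 difference of 1.31 (edgeR adjusted p = 0.0474). It was at 450.4 to 481 CPM in E0771-Res2 and at 144 to 296 CPM in E0771-Res1 mice. Of the Ccnd1 UMIs of E0771-Res2 mouse 2, 47.8% lay in 1 cell. Hmox1 was lower in E0771-Res2 than in E0771-Res1, at a log2 difference of -2.81 (edgeR adjusted p = 0.0380). Parental mouse 1 was at 33.9 CPM and the E0771-Res2 mice at 36.0 to 40.0 CPM. E0771-Res1 mouse 1 was at 399.5 CPM, with 78.1% of its Hmox1 UMIs in 1 cell. Mgl2 was the 1 gene called for a resistant minus parental change that differed between mature and Cd209a+ dendritic cells, by -4.08 (SE 0.61). That call was lost with DESeq2 and without E0771-Res2 mouse 1 or mouse 2. In the members of parental mouse 1, 88.6% of the Mgl2 UMIs lay in 1 cell.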

How the results depend on the processing

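Depth and cell number limited the comparisons: there were 8 to 58 members per mouse, 2 mice under 10 members and 1 parental mouse in the 6-mouse fits, so that the comparisons with parental tumors could not be fitted in 6 mice without parental mouse 1. Shares in percentage points, in the order resistant, E0771-Res1 and E0771-Res2 minus parental and E0771-Res2 minus E0771-Res1, ranged when single mice were left out from -1.13 to 0.591, -1.13 to 0.587, -1.13 to 0.595 and -0.367 to 0.406 of kept cells, and from -9.21 to 20.7, -16.1 to 13.9, -2.37 to 27.6 and 7.81 to 18.03 of gated dendritic cells. Calls ranged from 0 to 7, 0 to 6, 0 to 8 and 0 to 14, from 1410 to 1580 between gates and from 0 to 3 for the interaction. Thinned to 3000 UMIs, the differences in kept shares were 0.364, 0.380, 0.348 and -0.0323. E0771-Res1 minus parental was then 11.7 points of gated dendritic cells, and 564 of 971 genes were called between gates. Other small differences in share changed sign too. E0771-Res2 minus E0771-Res1 was -0.00169 points of kept cells with a gate sum of 2. It was -0.114 without the T cell condition and -0.0755 without the highest Scrublet scores. With a gate sum of 5, E0771-Res2 minus parental was 0.000682 points of kept cells. E0771-Res1 minus parental was then 1.91 points of gated dendritic cells. None of the shares passed a test under any setting run. In the same order, calls were 14, 16, 28 and 30 with no count filter (2411 between gates), 5, 4, 9 and 8 without C1q-bearing members, 1, 0, 0 and 1 with DESeq2 (interaction 0), and 2, 2, 1 and 0 with the replicate block. They were 0 in the 3 parental comparisons at a gate sum of 5, 0 for E0771-Res1 minus parental and E0771-Res2 minus E0771-Res1 at a sum of 2, and 2 for E0771-Res1 minus parental without the highest Scrublet scores. With 8 mice (added after seeing the data) they were 0, 0, 1 and 0, with the block 1, 0, 2 and 1, and with DESeq2 3, 0, 4 and 0. Apart from fewer genes, cells or samples, the causes were not tested. Replicate numbers share no animal, and same-numbered mice did not deviate together (r -0.0711 to 0.00676). The 10 increases and 10 decreases named first between gates kept direction and call under all alternatives that could be fitted.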

Other observations

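Of 12 lipid and cholesterol genes tested 4 were higher and 3 lower in mature than in Cd209a+ dendritic cells, close to the shares of all genes (26.6% and 26.1%). Fabp5, a fatty acid binding protein, ran from 4513 to 8230 CPM in mature cells and from 272 to 875 CPM in Cd209a+ cells, without overlap (log2 fold change 3.58, SE 0.16, edgeR adjusted p = 1.05e-10), and Npc2, which exports cholesterol from lysosomes, from 1475 to 3227 CPM against 1084 to 1421 CPM. Within the mature cells of the 3 lines Fabp5 was at 4513 and 5743 CPM in parental, 6507, 6188 and 8230 CPM in E0771-Res1 and 5044, 4995 and 5333 CPM in E0771-Res2 tumors. The E0771-Res1 mice lay above all others, and the difference from E0771-Res2 did not pass the test (edgeR adjusted p = 0.182 in 6 mice). Of 6 eicosanoid genes tested 2 were higher and 2 lower. Ptger4, the prostaglandin receptor EP4, had a median of 151 against 78.5 CPM, and Anxa1 (annexin A1) of 59.1 against 308 CPM.

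Of 14 glycolysis and hypoxia genes 7 were lower and 2 higher, among the lower ones Pkm (335 against 556 CPM). Of 23 dissociation and heat shock genes 15 were lower and 0 higher in mature cells, with Atf3 at 342 against 1143 CPM and Hspa1a at 129 against 282 CPM. Cells of both gates came from the same digests, and the part of dissociation was not tested. Of 4 cell cycle genes tested 1 was higher and 0 lower, and of 8 complement genes 1 was lower and 0 higher. Of 12 interferon gamma response genes 3 were higher and 5 lower. Of 6 pan-dendritic genes 2 were higher and 3 lower, of 4 XCR1+ markers 2 and 2, of 9 Cd209a+ markers 1 and 6, and of 2 plasmacytoid markers 0 and 1. Of the neutrophil, T cell, natural killer and B cell lists, 1, 1, 2 and 1 genes were tested, with 1 lower, 1 higher (Il7r), 0 called and 1 lower, and no tumor or stromal gene was tested.

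The 49 members with an Il12b UMI had a median depth of 8939 UMIs, against 8352 in the other 191. Ccl5 was detected in 49 of the 49 and in 169 of the 191 (88.5%), and Cd274 in 41 (83.7%) against 161 of the other 191 (84.3%). Ccl22 was detected in 31 of the 49 (63.3%) and in 105 of the 191 (55.0%). Of the 43 members with a Cxcl9 UMI 5 held Il12b (11.6%), against 44 of the 197 without (22.3%). For Cxcl10 it was 22 of the 116 members with a UMI (19.0%) and 27 of the 124 without (21.8%).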
